A study of Mus musculus with 7 samples.

Results

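The rod phototransduction genes followed here are 9 genes, taken by symbol from a count table of 48440 genes in embryonic mouse retina. *Gnat1* and *Gngt1* encode subunits of rod transducin, *Pde6a*, *Pde6b* and *Pde6g* the rod cGMP phosphodiesterase, *Cnga1* and *Cngb1* the rod cGMP-gated channel, and *Sag* and *Pdc* encode rod arrestin and phosducin. Whole retinas were collected at E16, and each of the 7 bulk RNA-seq libraries came from a pool of retinas of 1 genotype, so the spread between libraries is a spread between pools. The wildtype group (WT, Chx10Cre) has 1 library, the heterozygous group (Het, Chx10-Cre;Ptbp1lox/WT) has 3 and the homozygous mutant group (KO, Chx10-Cre;Ptbp1lox/lox) has 3. All groups, WT included, carry the Chx10-Cre transgene, which expresses Cre recombinase in retinal progenitors. Cells that do not descend from them keep *Ptbp1*. The comparison of Het with KO asks how losing the remaining copy of *Ptbp1*, which encodes an RNA-binding splicing repressor, changes gene expression in the embryonic retina.

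In a rod, the light-activated visual pigment switches on transducin, whose alpha subunit removes the inhibitory gamma subunit from the catalytic alpha and beta subunits of the phosphodiesterase. cGMP then falls and the cGMP-gated channel closes. Arrestin binds the phosphorylated pigment and ends the signal, while phosducin binds the beta and gamma subunits of transducin. Most mouse rods are born around and after birth and switch on these genes late, whereas cones are born in the embryo, so low counts and detection limits matter at E16.

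Photoreceptor genes are bound near their start by the homeodomain factors Crx and Otx2, whose preferred site contains TAATCC, and by the rod factor Nrl, whose site begins with TGCTGA. RefSeq promoter sequences of GRCm38.p6 were at hand for 6 of the 9 genes (*Gngt1*, *Pde6b*, *Cnga1*, *Cngb1*, *Sag* and *Pdc*). In the 250 bases before the RefSeq start, read on both strands, TAATCC occurred in 4 of these 6 and in 6.25% of 32851 promoters, and TGCTGA in 2 of the 6 and in 16.1% of all. These motifs do not overlap each other in the sequences shown. The TAATCC matches of *Gngt1* and *Cnga1* lie inside GENCODE exons, so they are upstream of the RefSeq start alone. The sequences below are those of the genes that were higher in KO and held a match outside annotated exons. A 30-base stretch is added for *Gngt1*, whose upstream window lies mostly within a GENCODE exon. Capitals mark TAATCC or its reverse complement and TGCTGA.
*Sag*, chr1:87803430-87803679, plus strand: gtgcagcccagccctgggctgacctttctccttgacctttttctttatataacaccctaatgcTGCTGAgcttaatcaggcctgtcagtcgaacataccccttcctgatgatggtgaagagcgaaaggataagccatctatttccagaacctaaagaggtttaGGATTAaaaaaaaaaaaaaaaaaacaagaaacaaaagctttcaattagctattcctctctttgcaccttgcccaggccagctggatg
*Cngb1*, chr8:95306586-95306835, minus strand: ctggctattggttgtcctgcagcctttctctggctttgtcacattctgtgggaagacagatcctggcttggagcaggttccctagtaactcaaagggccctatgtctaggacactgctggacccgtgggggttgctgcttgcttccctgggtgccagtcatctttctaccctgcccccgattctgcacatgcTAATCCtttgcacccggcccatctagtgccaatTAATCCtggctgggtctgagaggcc
*Pde6b*, chr5:108388123-108388372, plus strand: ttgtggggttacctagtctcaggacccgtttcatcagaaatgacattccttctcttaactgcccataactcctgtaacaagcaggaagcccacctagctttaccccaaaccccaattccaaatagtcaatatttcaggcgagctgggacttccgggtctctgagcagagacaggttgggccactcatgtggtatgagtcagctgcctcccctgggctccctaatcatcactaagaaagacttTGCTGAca
*Gngt1*, chr6:3993952-3993981, plus strand: tcatattaggggGGATTAtgaagaagcttt
In *Cngb1* the TAATCC matches began 58 and 25 bases before the start, and in *Gngt1* and *Sag* the match on the opposite strand began 44 and 87 bases before it. The TGCTGA match of *Pde6b* began 8 bases before the start and that of *Sag* 187 bases before it. *Pdc* held neither motif, and the match of *Cnga1* lay 228 bases before its RefSeq start, inside a GENCODE exon. A match describes these letters alone, and binding was not measured.

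The libraries held 120593979 to 171117305 counts, so that 3 counts, taken as the limit of detection, correspond to 0.0177 to 0.0252 CPM, the count relative to the library total after scaling by TMM. *Ptbp1* was measured at 381 CPM in WT, at 210 to 234 CPM in Het and at 6.04 to 46.9 CPM in KO, and its neural paralog *Ptbp2* at 338, 428 to 455 and 529 to 550 CPM. The retinal progenitor and eye field genes *Rax*, *Six3*, *Six6*, *Pax6* and *Lhx2* were all above 1 CPM in each of the 7 libraries. Het1 stood apart: the summed level of 8 skeletal muscle genes was 298 CPM there and 4.52 to 5.37 CPM in the other 6 libraries, and that of 7 pigment cell genes 553 CPM against 42.9 to 82.3 CPM. The most abundant gene of these lists was *Myh3* (88.8 CPM in Het1) for muscle and *Pmel* (320.5 CPM in Het1) for pigment cells, with *Rpe65* at no more than 2 counts in any library. Summed lens genes ranged from 2.51 to 80.6 CPM, led by *Cryaa*, and erythroid genes from 24.0 to 526 CPM, led by *Hbb-bs*. The lowest sums of both lists were in KO1 and KO2. Of 8 ganglion cell genes 3 were lower in KO by the test described next, and their sums were 2243 to 2330 CPM in Het and 1795 to 2073 CPM in KO, with *Gap43* the most abundant. The part of these other cell types in the results was not tested.

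Of the 9 rod phototransduction genes, 6 rose in KO relative to Het and none passed the test downward. The 6 were *Gngt1*, *Pde6b*, *Pde6g*, *Cngb1*, *Sag* and *Pdc*, with log2 fold changes from 1.24 to 3.65. *Pde6a* (1.64) and *Gnat1* (-0.17) did not pass, and *Cnga1* was too low to be tested. A change was called where edgeR's quasi-likelihood test, fitted on all 20019 genes that passed the filter on low counts, gave a p below 0.05 after Benjamini-Hochberg adjustment and the change exceeded 1.2-fold. By this rule 4.01% of all genes tested were higher in KO, and 3.21% lower. Among the members 7 had an unadjusted edgeR p below 0.05, all higher in KO, as had 15.1% of all genes tested, and DESeq2 called 6 higher and 0 lower. The median log2 fold change over the 8 tested members was 1.83, beside -0.0047 over all genes tested. *Pde6a* passed the filter only through KO1 and KO2, where it had 10 counts or more. The 7 members and the median thus include a gene admitted through its KO counts. In bulk tissue, a change in the number of cells of a type and a change in RNA per cell cannot be told apart.

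In 7 of the 8 tested members the KO libraries all lay above the highest Het library. This was so in 18.6% of all genes tested, and 36.3% had no overlap in either direction. The exception was *Gnat1*. The 7 include *Pde6a*, which passed the filter only through KO1 and KO2, so for this gene the filter favoured a place above Het. The plot of the members by library also shows *Cnga1*, which is left out of this count because its counts lay at or below the detection limit in all libraries but KO3.

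**Figure D1:**
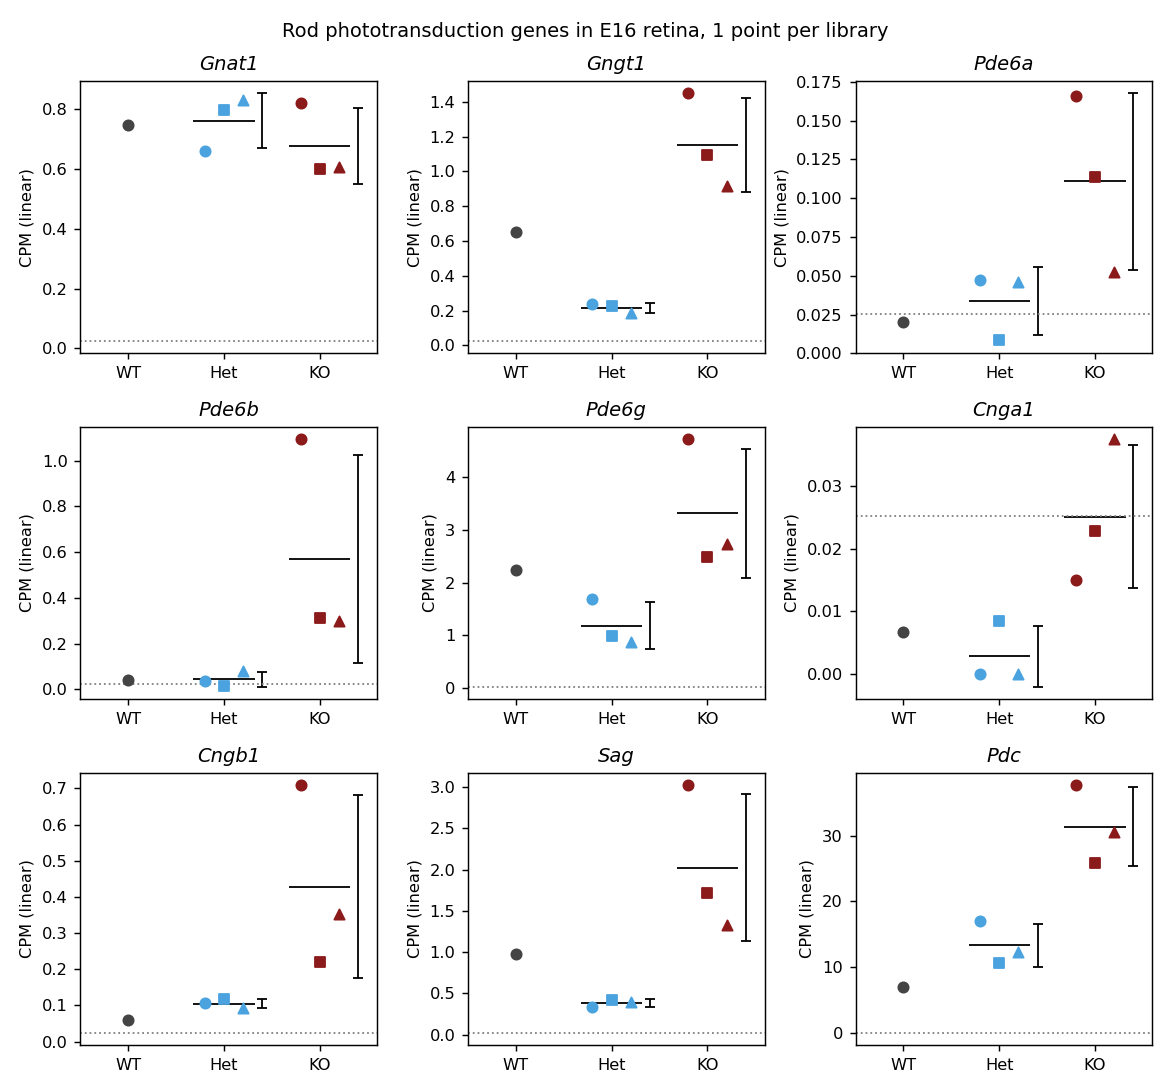
Expression of the 9 genes in CPM (y axis, linear, a scale of its own per gene) in WT, Het and KO, 1 point per library, with circles, squares and triangles for replicates 1, 2 and 3. Black lines are means and bars SD (n = 3), and the dotted line is the highest detection limit, 0.0252 CPM; in each tested gene but *Gnat1* the KO points lie above the Het points, and the points of *Cnga1* lie at or under the limit except in KO3.

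The transducin subunits differed from each other. *Gngt1* (ENSMUSG00000029663.10; GRCm38, chromosome 6, 3993792 to 3997436), the gamma subunit of rod transducin, was measured at 0.652 CPM in WT, at 0.235, 0.227 and 0.185 CPM in Het1 to Het3, and at 1.45, 1.09 and 0.916 CPM in KO1 to KO3. The lowest KO library was above WT, and WT was above every Het library. The rise from Het (0.216 ± 0.0272 CPM, SD, n = 3) to KO (1.15 ± 0.271 CPM, SD, n = 3) gave a log2 change of 2.41 ± 0.231 (SE; adjusted p = 0.00480 by edgeR). These values rest on 27 to 40 counts per library in Het and on 122 to 192 in KO.
*Gnat1* (ENSMUSG00000034837.12; chromosome 9, 107674474 to 107679712), the alpha subunit that carries the signal to the phosphodiesterase, was nearly level in all 7 libraries. It was measured at 0.746 CPM in WT, at 0.659, 0.797 and 0.830 CPM in Het and at 0.822, 0.600 and 0.608 CPM in KO. Here Het and KO overlapped, and the log2 change from Het to KO was -0.17 ± 0.192 (SE; adjusted p = 0.586 by edgeR). *Gnat1* had 79 to 126 counts in every library, against 27 to 192 for *Gngt1*. Within 1 Mb of *Gnat1*, 10 of 77 tested genes were differentially expressed, 9 of them lower in KO. Over all genes tested, 7.22% were differentially expressed and 3.21% were lower. Around *Pde6a*, whose own log2 fold change was 1.64, 5 of 31 were called, 4 of them lower, and around each other member 0 to 3 were called. The part of these neighbourhoods in the levels of the members was not tested.

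The 3 phosphodiesterase subunits were all higher in each KO library than in any Het library, but at levels far apart. *Pde6g* (ENSMUSG00000025386.2; chromosome 11, 120447605 to 120453500) encodes the inhibitory gamma subunit. It was measured at 2.25 CPM in WT, at 1.69, 0.990 and 0.870 CPM in Het and at 4.72, 2.48 and 2.72 CPM in KO. WT lay between the groups, close to the lower KO libraries. The mean went from 1.18 ± 0.442 to 3.31 ± 1.22 CPM (SD, 3 pools per genotype), with a log2 change of 1.48 ± 0.345 (SE; adjusted p = 0.0424 by edgeR).
*Pde6b* (ENSMUSG00000029491.7; chromosome 5, 108388391 to 108432397), the catalytic beta subunit, had 6 counts in WT, 6, 2 and 12 in Het and 145, 41 and 40 in KO. In CPM these were 0.0403 in WT, 0.0353, 0.0168 and 0.0791 in Het and 1.09, 0.312 and 0.300 in KO. Het and WT were near the detection limit, and KO1 was 3.58 times the mean of KO2 and KO3. The log2 change of 3.65 ± 0.749 (SE; adjusted p = 0.0298 by edgeR) was the largest among the tested members.
*Pde6a* (ENSMUSG00000024575.15; chromosome 18, 61220315 to 61289924), the catalytic alpha subunit, had 3 counts in WT, 8, 1 and 7 in Het and 22, 15 and 7 in KO. The lowest KO library, at 0.0525 CPM, was barely above the highest Het library, at 0.0471 CPM. Its log2 fold change of 1.64 had a standard error of 0.676 and did not pass (adjusted p = 0.164, edgeR). A pseudogene, *Rps2-ps10*, lies within *Pde6a* on the opposite strand and shares no exon base with it.

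The channel subunits were both low in Het and WT. *Cngb1* (ENSMUSG00000031789.16; chromosome 8, 95239045 to 95306585), the beta subunit, was measured at 0.0605 CPM in WT, at 0.106, 0.118 and 0.0923 CPM in Het and at 0.709, 0.220 and 0.353 CPM in KO. WT was the lowest library, with 9 counts, and KO1 the highest, with 94. The log2 change from Het to KO was 2.02 ± 0.461 (SE; adjusted p = 0.0401 by edgeR).
*Cnga1* (ENSMUSG00000067220.12; chromosome 5, 72603696 to 72644275), the alpha subunit that forms the pore, had 1 count in WT, 0, 1 and 0 in Het and 2, 3 and 5 in KO. Only KO3 exceeded 3 counts. A count of 0 allows a level of up to 0.0177 CPM in Het1 and 0.0198 CPM in Het3. At these counts *Cnga1* did not enter the main test, and no fold change is given. In the fit without a filter on low counts it was not called (adjusted p = 0.184, edgeR).

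The shutoff and regulatory genes *Sag* and *Pdc* rose as well, from different starting levels. *Sag* (ENSMUSG00000056055.13; chromosome 1, 87803680 to 87845158), rod arrestin, was measured at 0.982 CPM in WT, at 0.336, 0.420 and 0.395 CPM in Het and at 3.03, 1.72 and 1.33 CPM in KO. As in *Gngt1*, WT lay above all Het and below all KO libraries. The mean went from 0.384 ± 0.0433 to 2.02 ± 0.889 CPM (SD, 3 pools per genotype), with a log2 change of 2.40 ± 0.327 (SE; adjusted p = 0.0105 by edgeR).
*Pdc* (ENSMUSG00000006007.14; chromosome 1, 150319417 to 150333906), phosducin, was by far the most abundant member, with 1034 counts in WT, 2888, 1266 and 1857 in Het and 4996, 3396 and 4071 in KO. In CPM these were 6.95 in WT, 17.0, 10.6 and 12.2 in Het and 37.7, 25.8 and 30.6 in KO. WT was the lowest library, and Het1 was the highest of the Het libraries. The mean went from 13.3 ± 3.31 to 31.4 ± 5.98 CPM (SD, 3 pools per genotype), with a log2 change of 1.24 ± 0.205 (SE; adjusted p = 0.0174 by edgeR). An antisense gene, *2310030A07Rik*, overlaps *Pdc* without sharing exon bases and had at most 5 counts in any library. *Pdc* made up 59.4% of all member counts in WT, 80.4% to 84.5% in Het and 75.9% to 82.9% in KO.

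Levels of different genes were compared as CPM per kilobase of merged exon length. That length joins the exons of all annotated transcripts, and was 3.515 kb for *Gngt1*, 3.029 kb for *Gnat1* and 8.904 kb for *Sag*. For *Gngt1* it covers nearly the whole gene. Where the transcripts present are shorter, the level per kilobase is too low, so the order between genes depends on these lengths. In KO the order was *Pdc* (9.36), *Pde6g* (1.43), *Gngt1* (0.328), *Sag* (0.227), *Gnat1* (0.223), *Pde6b* (0.113), *Cngb1* (0.0457), *Pde6a* (0.0236) and *Cnga1* (0.00397 CPM per kilobase). In that order the libraries of each neighbouring pair from *Gngt1* to *Pde6a* overlapped, so only *Pdc*, *Pde6g* and *Cnga1* stood clear of their neighbours. In Het, *Pdc* (3.97) and *Pde6g* (0.511) also led, followed by *Gnat1* (0.252), *Gngt1* (0.0613) and *Sag* (0.0431 CPM per kilobase). There *Cngb1* overlapped with *Pde6b* and *Pde6b* with *Pde6a*, at 0.0112, 0.00870 and 0.00722 CPM per kilobase, and *Cnga1* was at or below 1 count. On this scale *Gnat1* thus exceeded *Gngt1* in every Het library. In KO the libraries of *Gnat1* (0.198 to 0.272) and *Gngt1* (0.261 to 0.412 CPM per kilobase) overlapped. The inhibitory *Pde6g* exceeded both catalytic subunits in all 7 libraries, and *Gnb1*, the beta subunit of rod transducin that many other cells use, was at 233 CPM per kilobase in KO.

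The WT library has no replicate, so it is set beside the groups without a test. Its intervals are exact binomial (Clopper-Pearson, 95%) and cover counting error only. Leaving aside *Cnga1*, WT was below every KO library in 7 of 8 members, *Gnat1* being the exception, and in 31.5% of all genes tested. The 7 include *Pde6a*, which was admitted to the test through its KO counts. Against Het, WT went both ways: above all 3 Het libraries in *Gngt1*, *Pde6g* and *Sag*, and below all 3 in *Cngb1* and *Pdc*. Over all genes tested, WT was above every Het library in 25.8% and below every one in 25.6%. As a share of WT, Het averaged 33.0% in *Gngt1*, 39.1% in *Sag* and 52.7% in *Pde6g*, but 191% in *Pdc*. The WT interval was 0.529 to 0.796 CPM for *Gngt1*, 0.829 to 1.15 CPM for *Sag*, 2.01 to 2.50 CPM for *Pde6g*, 6.54 to 7.39 CPM for *Pdc* and 0.0277 to 0.115 CPM for *Cngb1*. No Het library fell inside the first 4, and Het1 and Het3 fell inside that of *Cngb1*. Replicate pools differed by 14.0 to 53.2 times the counting variance on average over genes, those with few counts left out. These intervals leave out that spread between pools, and its size for the members alone was not taken. The KO mean was 177% of WT in *Gngt1*, 206% in *Sag*, 147% in *Pde6g* and 451% in *Pdc*.

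KO1 was the highest of all libraries in 7 of the 8 tested members, *Gnat1* being the exception, and in 18.7% of all genes tested. The 7 include *Pde6a*, which passed the filter only through KO1 and KO2. The excess of KO1 over the mean of KO2 and KO3 was 1.34-fold in *Pdc*, 1.44-fold in *Gngt1*, 1.81-fold in *Pde6g*, 1.99-fold in *Sag*, 2.47-fold in *Cngb1* and 3.58-fold in *Pde6b*. Remaining *Ptbp1* was 27.9 CPM in KO1, 6.04 CPM in KO2 and 46.9 CPM in KO3, and a relation of the members to it was not tested. Of all 9 members, KO2 exceeded KO3 in 4 and was below it in 5. The 5 include *Cnga1* (3 against 5 counts) and *Gnat1* (0.600 against 0.608 CPM). Over the 7 libraries, the 21 pairs among the tested members other than *Gnat1* had Pearson correlations of log2 CPM from 0.633 to 0.980, and the 7 pairs with *Gnat1* from -0.375 to -0.126. These describe 7 libraries that share genotype differences and depth, and carry no test.

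No tested member changed sign when any 1 Het or KO library was left out, but several calls were lost. *Gngt1* remained differentially expressed in all 6 fits that left out a library (log2 fold changes from 2.22 to 2.56), and *Sag* in 5, the exception being without Het2 (adjusted p = 0.0551, edgeR). *Pdc* was called in 4, *Pde6b* in 2, *Pde6g* in 1 and *Cngb1* in 1. The number of members called fell from 6 to 1 without Het2, to 2 without Het3 and to 4 without Het1, KO1, KO2 or KO3. Over all genes tested, the number called fell from 1445 to 386 without Het2 and to 496 without Het3. In each of these 2 fits 6 of the 8 members had an unadjusted edgeR p below 0.05. Over all genes, 4810 of 20015 did so without Het2 and 4583 of 19900 without Het3. The 6 without Het3 include *Pde6b*, which passed the filter there only through its KO counts. It had 6 and 2 counts in Het1 and Het2 and 6 in WT. Without Het1, the pool with muscle and pigment cell genes, the log2 fold changes of *Pde6g*, *Pdc*, *Gngt1* and *Pde6a* were higher, at 1.83, 1.45, 2.49 and 1.92. Those of *Sag* and *Pde6b* were lower, at 2.31 and 3.48, *Cngb1* was at 2.03 and *Gnat1* at -0.27. In this fit *Pde6b* and *Cngb1* lost their calls (adjusted p = 0.0719 and 0.0875, edgeR).

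**Figure D2:**
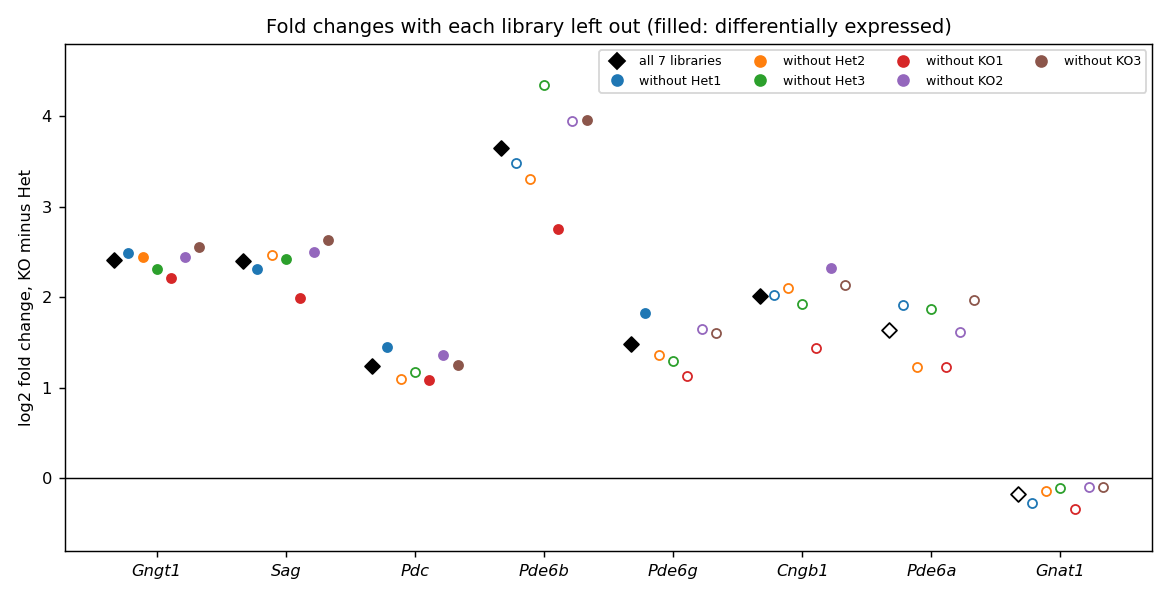
Log2 fold change, KO minus Het (y axis), of the 8 tested members with all 7 libraries (black diamonds) and with each Het or KO library left out (coloured circles). Filled points are differentially expressed by edgeR. Only *Gngt1* is filled throughout, and the fit without KO1 gave the lowest value in each of the 8 members.

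The same cascade in cones uses related subunits, and 10 cone counterparts were followed beside the rod genes. Of these, 8 were tested and 6 rose, while *Opn1mw* and *Pde6h* had too few counts (at most 3 and 10 in any library). The largest rises were in *Opn1sw*, the short-wavelength cone opsin, with a log2 change of 1.99 ± 0.387 (SE), *Pde6c*, the cone phosphodiesterase (1.43 ± 0.279), and *Gnat2*, the cone transducin alpha subunit (0.80 ± 0.169). Their adjusted p from edgeR were 0.0259, 0.0259 and 0.0327. The most abundant, *Gnb3*, at 27.1 ± 3.95 CPM in Het and 38.0 ± 5.98 CPM in KO (SD, n = 3 each), did not pass (adjusted p = 0.0702, edgeR), nor did cone arrestin, *Arr3*, with 7 to 20 counts per library. The median over the 8 tested was 0.65. In WT, 7 of the 10 cone genes were above 1 CPM, against 2 of the 9 rod members. Without Het2 or without Het3, 0 of the cone genes were called by edgeR, though 7 had an unadjusted p below 0.05 in each of these fits, and 1 was called without KO2. DESeq2 called 7 with all libraries.

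**Figure D3:**
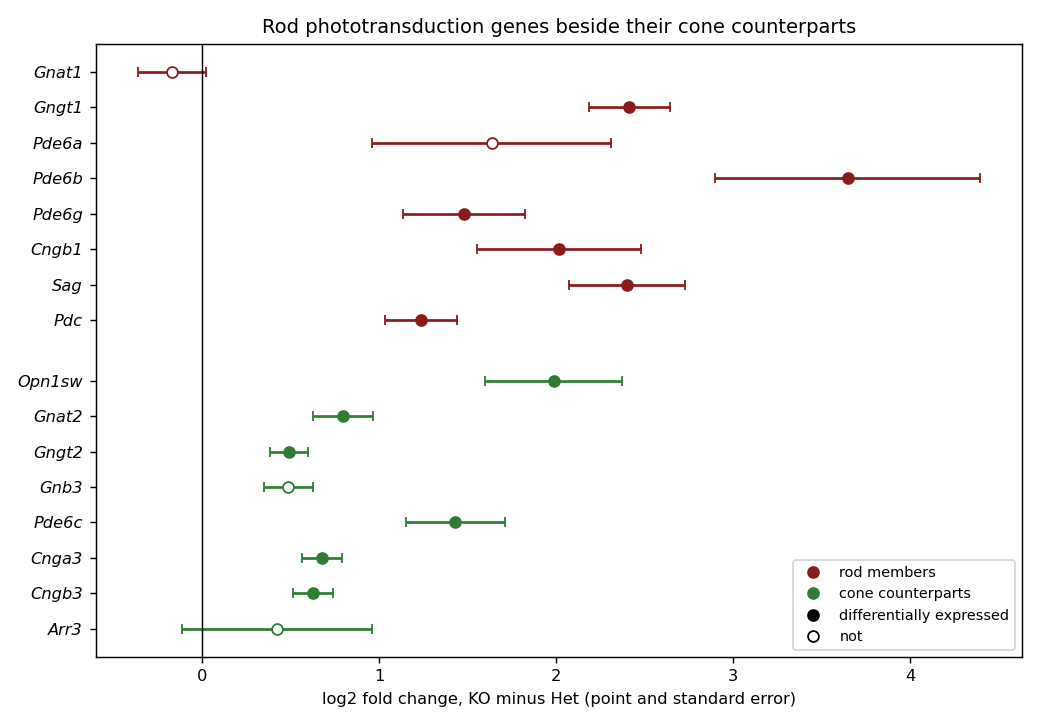
Log2 fold change, KO minus Het, with its standard error (x axis) for the 8 tested rod members (dark red) and the 8 tested cone counterparts (green). Filled points are differentially expressed; 6 of the rod and 6 of the cone genes are filled, and *Gnat1* lies at -0.17 while *Gnat2* lies at 0.80.

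Within each library the ratio of a rod gene to its cone counterpart was taken on the scale of CPM per kilobase, for 6 pairs with counts in every library. The size of a ratio depends on the merged exon lengths, whereas its difference between groups does not. *Gngt1* was 0.00492, 0.00490 and 0.00340 of *Gngt2* in Het1 to Het3 and 0.0199, 0.0143 and 0.0155 of it in KO1 to KO3. *Sag* was 2.15, 0.827 and 1.59 times *Arr3* in Het and 8.84, 2.99 and 4.68 times it in KO. The log2 ratio was thus higher in KO by 1.91 for *Gngt1*, by 1.82 for *Sag* and by 1.23 for *Cngb1* over *Cngb3*, without overlap of the groups. *Gnat1* over *Gnat2* went the other way, from 0.0407, 0.0767 and 0.0764 in Het to 0.0357, 0.0285 and 0.0289 in KO, a log2 difference of -1.01. For these 4 pairs the two-sided exact permutation p was 0.1, the smallest that 3 libraries against 3 allow, and 0.15 after Benjamini-Hochberg adjustment over the 6 pairs, so this test could not pass 0.05 whatever the size of the difference. *Pde6b* over *Pde6c* (log2 difference 2.19, exact permutation p = 0.2) and *Pde6a* over *Pde6c* (0.42, exact permutation p = 0.6) overlapped between the groups.

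**Figure D4:**
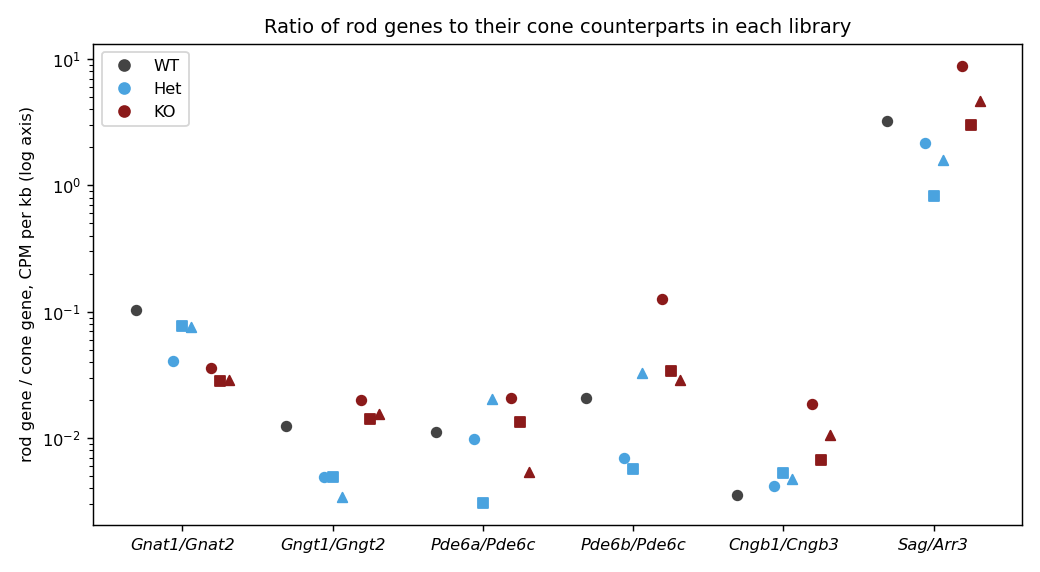
Ratio of each rod gene to its cone counterpart (y axis, log scale, CPM per kilobase over CPM per kilobase) in WT, Het and KO, 1 point per library, with circles, squares and triangles for replicates 1, 2 and 3. KO points lie above Het points for *Gngt1*, *Cngb1* and *Sag*, and below them for *Gnat1*.

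Other genes of the cascade and its recovery formed a list of 15, all tested, of which 4 rose and 1 fell. *Rcvrn*, recoverin, which restrains the kinase that phosphorylates the visual pigment, and *Grk1*, that kinase itself, rose by 3.52 and 0.93 on the log2 scale (adjusted p = 0.0243 and 0.0196, edgeR). *Rcvrn* was near the detection limit outside KO, with 8 counts in WT, 14, 8 and 2 in Het and 129, 42 and 80 in KO. *Guca1b*, a guanylate cyclase activator that helps restore cGMP, fell by 3.20 on the log2 scale (adjusted p = 0.0421, edgeR). It was at 1.90 CPM in Het1, the pool with muscle and pigment cell genes, at 0.361 and 0.521 CPM in Het2 and Het3, and at 0.0528 to 0.150 CPM in KO. *Gnb1*, the most abundant of the list, was at 998 ± 1.81 CPM in Het and 997 ± 58.4 CPM in KO (SD, n = 3 each). The median of the list was 0.24.

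Of 13 photoreceptor transcription factors, 7 rose and none passed downward by edgeR (0 lower at an unadjusted p below 0.05, and 0 by DESeq2). Among them were *Nrl*, which specifies rod fate, and *Nr2e3*, a nuclear receptor that acts with it in rods, with log2 fold changes of 1.41 and 3.34 (adjusted p = 0.0120 and 0.00831, edgeR). *Samd7*, a photoreceptor repressor, rose by 2.79 on the log2 scale (adjusted p = 0.00412, edgeR), and like *Gngt1* and *Sag* it was higher in WT (1.27 CPM) than in Het (0.395 to 0.589 CPM). The most abundant of the list, *Rorb*, had a log2 fold change of 0.08 (adjusted p = 0.235, edgeR). *Crx* and *Otx2*, whose site is shown above, were at 159 ± 9.59 and 173 ± 10.4 CPM in Het and at 182 ± 14.9 and 189 ± 10.7 CPM in KO (SD, n = 3 each), and neither passed (adjusted p = 0.116 and 0.216, edgeR). The median of the list was 0.32.
Of 15 outer segment genes 14 were tested, and 4 rose and 1 fell. *Rp1*, of the photoreceptor axoneme, *Rom1*, of the disc rim, and *Tulp1*, needed for transport to the outer segment, had log2 fold changes of 2.09, 1.07 and 0.88 (adjusted p = 0.0105, 0.0298 and 0.00646, edgeR). *Rbp3*, the retinoid-binding protein of the space around the outer segments and the most abundant of the list, rose by 0.55 on the log2 scale (adjusted p = 0.0443, edgeR). *Impg2*, a matrix proteoglycan named after its value was seen, fell by 0.83 on the log2 scale (adjusted p = 0.0131, edgeR). It was at 43.5 CPM in WT, at 68.4 to 82.4 CPM in Het and at 38.1 to 51.4 CPM in KO. The WT library thus lay within KO and below Het. The median of the list was 0.38. The numbers called in these 3 lists fell to 0, 3 and 1 without Het2 and to 0, 4 and 3 without Het3. For the list of other cascade genes, 9 and 8 genes had an unadjusted edgeR p below 0.05 in these fits. The number called in that list fell to 2 without KO1 and to 1 without KO2, and the outer segment list to 2 without KO2.

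Across the 7 libraries, genes whose log2 CPM followed the mean standardized profile of the tested members most closely, among 17865 other genes with a mean of at least 0.1 CPM, included *Zfp109*, *Ccdc88b*, *Nmi* and *E2f1*. Their Pearson correlations with it were 0.994, 0.990, 0.989 and 0.987. None of them is in the photoreceptor lists. Their log2 fold changes, from 0.23 to 0.78, were smaller than those of the members that rose.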

How the data were processed

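RNA was sequenced from 7 pools of retinas (1 WT, 3 Het, 3 KO). Within rMATS-turbo, the authors mapped reads to GRCm38 (mm10) using STAR, then counted them on GENCODE genes with featureCounts. The deposited table holds raw counts per gene. Tool versions, strand setting and treatment of multi-mapping reads are not given in the sources used here, so counts shared with close copies or overlapping genes are uncertain. For extraction the methods name a column kit and the labels TRIzol.

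The analysis used edgeR 4.0.16 (R 4.3.3), with filterByExpr on genotype, TMM, and one quasi-likelihood fit (not robust) of all 7 libraries with a mean per genotype, KO against Het. Benjamini-Hochberg adjustment covered all 20019 genes tested, and SE is the size of the log2 change divided by the square root of F. CPM uses the total counts of a library times its TMM factor. Totals and the detection limit of 3 counts are given in the report. The libraries are pools, so p-values measure the spread between pools. Exon lengths and coordinates come from GENCODE M21 (GRCm38), not the release counted on. The edgeR and DESeq2 1.42.0 scripts were tested on simulated data.

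Named are all members, *Ptbp1*, *Ptbp2*, of each list the 3 called genes with the largest change and the most abundant one, the 5 genes most like the members (log2 CPM, prior count of 2), and the most abundant gene of each other cell type. Members and lists were chosen with earlier results of these data known, the lists by hand with the paper in view. Other genes named, *Crx*, *Otx2* and *Arr3* among them, were chosen after their values were seen. Some results are not reported here. Alternatives were DESeq2, other normalizations (RLE, upper-quartile), filters of none or of 10 counts in every library, a fit of Het and KO without WT, a replicate block, each library left out, adjusted p alone, glmTreat, a robust fit, and CPM without TMM factors.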

Additional observations from a re-analysis of the deposited data

How the results depend on the processing

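Most alternatives left the number of members called (6) within 1.5 times its value. Testing against the 1.2-fold limit with glmTreat called 217 genes in place of 1445 and 2 of the members (*Gngt1* and *Sag*), 0 cone counterparts and 0 of the list of other cascade genes (7 and 6 genes at an unadjusted p below 0.05), 4 transcription factors and 2 outer segment genes. DESeq2 called 7 and 6 genes of the lists with 0. An adjusted p alone called 2221 genes, and at least 10 counts in every library left 3 of the list of other cascade genes. Leaving out each Het or KO library gave 386 to 1674 genes, 1 to 4 members, 0 to 6 cone counterparts, 0 to 6 genes of the list of other cascade genes, 3 to 7 transcription factors and 1 to 7 outer segment genes. No fold change of a tested member changed sign in any alternative that gave a value. Without WT, or with the block, *Pde6a* did not pass the filter, and *Pde6b* passed it through its KO counts.

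Deviations from the group means of same-numbered Het and KO libraries correlated at -0.197, 0.159 and -0.0739, without a common sign. With 3 libraries per group these values cannot exclude a pairing by replicate number. With the replicate number as a block, 1268 genes and 5 members were called, *Cngb1* being lost (adjusted p = 0.0598 by edgeR). The 5 include *Pde6b*, which passed the filter of this fit through its KO counts. Of the Het libraries only Het3, with 12 counts of *Pde6b*, was above that filter. The SE of *Pdc* fell from 0.205 to 0.0567 and that of *Pde6g* from 0.345 to 0.130, while that of *Gnat1* rose from 0.192 to 0.227. CPM without TMM factors moved no member's group mean by as much as its SD. Counts of at most 5 limit *Cnga1* in all libraries, counts of at most 22 *Pde6a* in all libraries, and counts of at most 12 *Pde6b* in WT and Het.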
